A study of Rattus norvegicus with 12 samples.

Results

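Blood gene expression of rats given lipopolysaccharide (LPS) was compared, 6 h later, with a pool of control RNA kept for that time. The comparison rests on the arrays titled LPS 6 h: 6 of the 12 arrays of the series, from 3 of the 6 rats as counted here. The rats are numbered 2, 4 and 6, and each was hybridised on 2 arrays against the same control pool. On the array called fluor the pool was in channel 1 and the LPS sample in channel 2, and on the array called flip the channels were exchanged. The log2 ratios of both arrays were averaged because they compare the same RNA extracts, which leaves 3 replicates, 1 per rat. The other 3 rats, numbered 1, 2 and 3, were measured at 2 h against a separate pool. Number 2 thus occurs at both times. It was counted as 2 rats, though the labels do not say whether it is 1 animal. Strain, sex, age, the dose and route of LPS, what the control animals received and how many made up a pool are details that the sources used here do not give. That the RNA came from blood is stated in the title of the series alone, and ratios hold no levels with which the tissue's defining markers could be checked. The labels say no more of the independence of the rats. The p-values measure the spread between these 3 rats and the 2 h rats that share the fit. The pool counts as 1 control sample, and its own spread enters no test.

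LPS is the outer membrane component of Gram-negative bacteria, and cells sense it through Toll-like receptor 4 with CD14 and MD-2. The receptor signals through NF-kB, which drives cytokine genes such as Il1b and Tnf, and through interferon regulatory factors, which start an interferon response. In blood, an LPS challenge is known for the release of neutrophils, the loss of lymphocytes from the circulation and a rise of adrenal glucocorticoid. In whole blood RNA, fewer cells of a type and less RNA per cell cannot be told apart.

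Values above 0 are taken to mean more RNA after LPS. That reading is likely and not settled, since the sources used here do not name dyes. It rests on genes such as Il1b, S100a9 and Gbp2, whose values were positive on each of the 6 arrays. Over all probes, fluor and flip arrays from 1 rat correlated weakly, with a Pearson r of 0.14 in rat 2, 0.07 in rat 4 and -0.05 in rat 6. Arrays of the same orientation from different rats correlated at 0.52 to 0.66. Rat means correlated at 0.51 to 0.60. These are descriptions across probes, which share the array and its layout. Of 3939 genes, 1962 (49.8%) had fluor and flip means of opposite sign, and 40 of these were among the genes past the threshold. Array medians lay between -0.0097 and 0.0083 and standard deviations between 0.30 and 0.389. The number of arrays limits the precision, and no depth or signal over background is held in ratios.

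At 6 h, 749 of the 3939 genes (19.0%) differed from the control pool at a Benjamini-Hochberg adjusted p under 0.05 in limma's moderated test, and 1454 had an unadjusted p under 0.05. Of these 749, 327 (8.30% of all genes) were higher and 422 (10.7%) were lower. The changes were mostly small. The absolute mean was under 0.25 on the log2 scale for 423 of the 749 genes, 0.25 to 0.5 for 216, 0.5 to 1 for 89 and at least 1, that is 2-fold, for 21. The median was 0.22 among genes that rose and -0.23 among genes that fell, against 0.0069 over all genes. The median SD between the 3 rats was 0.0588. A requirement, added after the data were seen, that all 6 arrays have the same sign left 581 of the 749, 233 higher and 348 lower. Over all genes, 897 (22.8%) had the same sign on the 6 arrays, 10.2% above 0 and 12.6% below. Leaving out a rat of 6 h moved the count by more than 1.5 times: 306 genes without rat 2, 415 without rat 4 and 390 without rat 6. Of the 749 calls, 301, 392 and 371 were kept in turn. Multiplying the flip arrays by -1 cancels what both arrays of a rat show alike. With that setting 1461 genes passed, more than the 749 as deposited, and the cause was not tested.

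**Figure D1:**
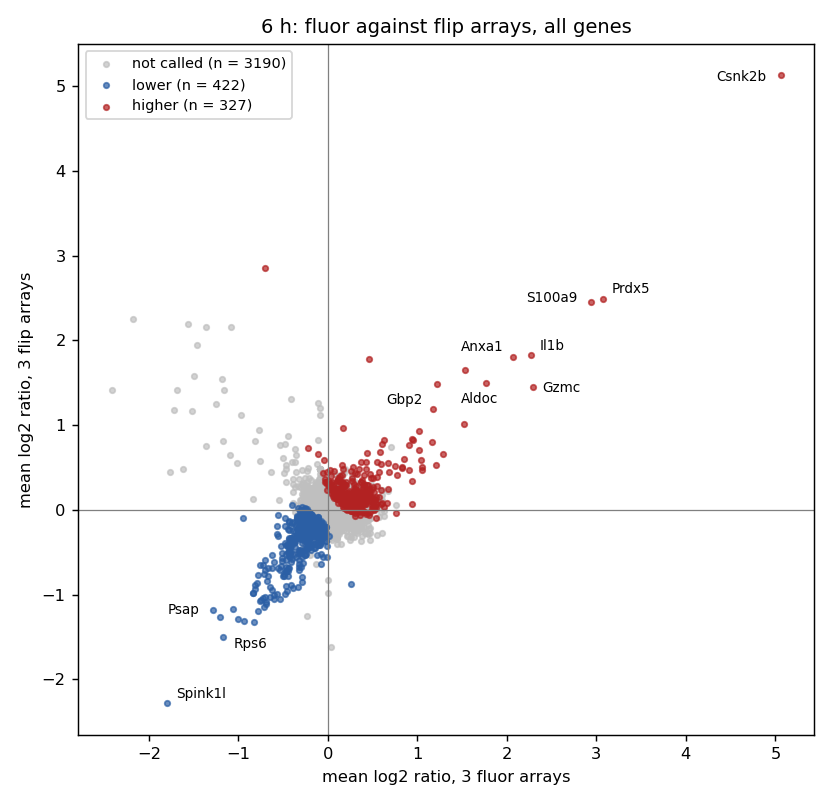
Each point is 1 of 3939 genes, placed by its mean log2 ratio on the 3 fluor arrays of 6 h (x axis) and on the 3 flip arrays (y axis). Red points are the 327 genes past the threshold above 0, blue points the 422 below 0 and grey points the rest; genes with large changes of 1 sign on both axes lie on the diagonal, while a cloud of grey points at the upper left is below 0 on fluor and above 0 on flip arrays.

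Of the 21 genes with at least a 2-fold change, 13 rose and 8 fell, and 19 had the same sign on all 6 arrays. The other 2 were Ptk2, the focal adhesion kinase, and Ramac, an activator of mRNA cap methylation. Ptk2 averaged -0.70 on fluor arrays and 2.85 on flip arrays, and Ramac 0.46 and 1.78, so they are not described further.

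**Figure D2:**
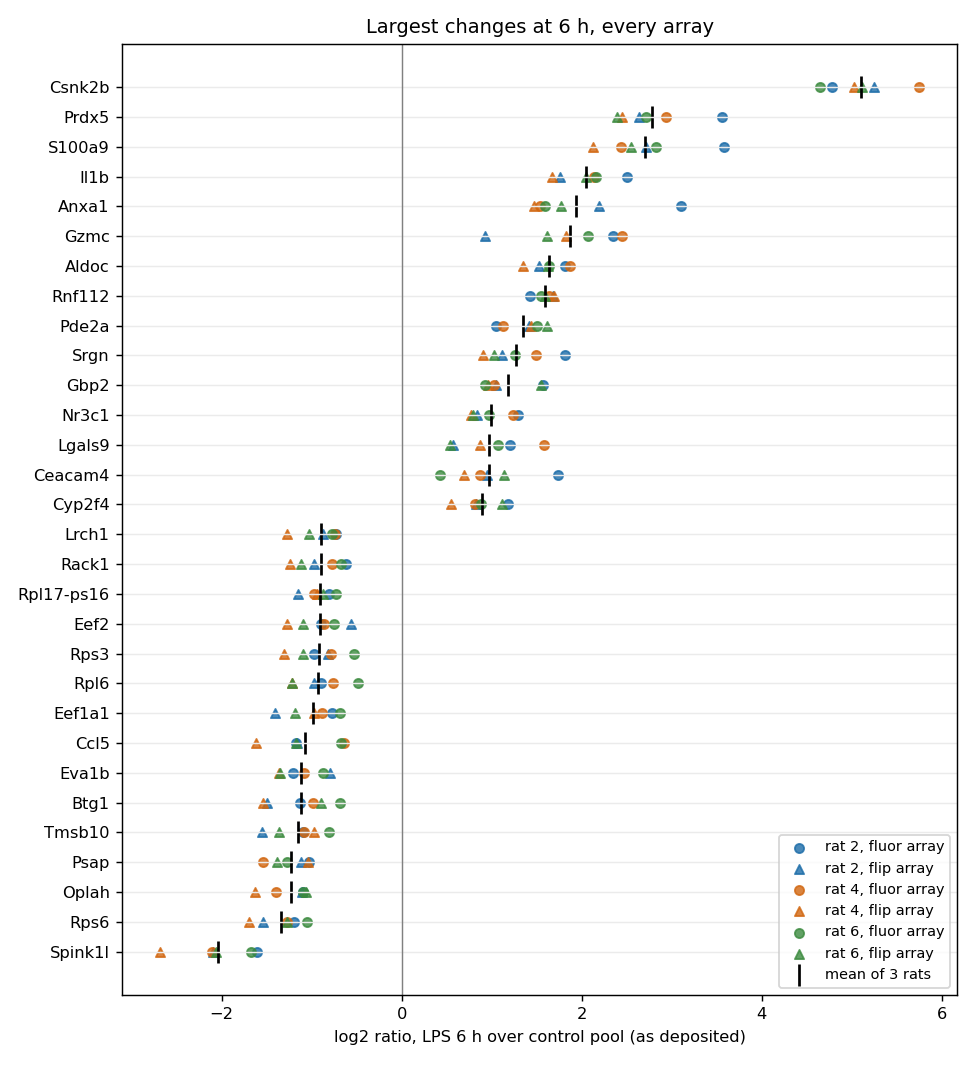
Log2 ratio to the control pool (x axis) on each of the 6 arrays of 6 h for the 15 genes with the largest rises and the 15 with the largest falls among genes past the threshold with 1 sign on all arrays. Circles are fluor and triangles flip arrays, colours are rats, and black bars are means of 3 rats; Csnk2b stands apart at 5.10, and the falls end at -2.04 with Spink1l.

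Inflammatory effectors of myeloid cells were among the largest rises. Il1b, which encodes the cytokine interleukin-1 beta, was at 2.13 in rat 2, 1.90 in rat 4 and 2.11 in rat 6. All 3 rats lay close together, and the mean was 2.05 ± 0.13 (SD, n = 3), or 4.13-fold (limma adjusted p = 8.4e-05). S100a9, a subunit of the neutrophil calcium-binding protein calprotectin, was at 3.15, 2.27 and 2.69 in rats 2, 4 and 6, a mean of 2.70 ± 0.44 (SD, n = 3) or 6.50-fold (limma adjusted p = 0.000347). The probe named S100a8, the other calprotectin subunit, stayed near 0 with values of 0.019, -0.13 and -0.051 (limma adjusted p = 0.438). Il1r2, the decoy receptor that binds interleukin-1 without signalling, was at 0.69, 0.51 and 0.98, a mean of 0.73 ± 0.24 (SD, n = 3; limma adjusted p = 0.00175).

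Of 28 textbook LPS-induced genes, 8 were measured, 6 passed the threshold above 0 and 0 below, with a median of 0.36. The shares over all genes were 8.30% higher and 10.7% lower. Without rat 2, 4 of the 6 passed. Besides Il1b and Il1r2 the list holds Irf1, the transcription factor that interferon induces, at 0.40, 0.40 and 0.57 in the 3 rats. Zfp36, which destabilises cytokine mRNA, was at 0.38, 0.17 and 0.24. Lcn2, the iron-sequestering lipocalin of neutrophil granules, was at 0.61, 0.60 and 0.62 (limma adjusted p = 0.00856). Its values hardly differed between rats, but its adjusted p was 0.0556 without rat 2 and 0.0737 with arrays scaled to equal spread. Lcn2 lies near Csnk2b in the numbering of probes, as do Rnf112 and RT1-Db1. With the median of neighbouring probes subtracted the Lcn2 mean was 0.50. A median hardly reflects 1 extreme neighbour, so an effect of the Csnk2b probe on those near it was not tested. Tnf, which encodes tumour necrosis factor, was at 0.27, 0.17 and 0.22. This is a small rise (mean 0.22, limma adjusted p = 0.00636) that had an adjusted p of 0.0555 without rat 2, and on fluor arrays alone the mean was 0.038. Sod2, the mitochondrial superoxide dismutase, had a mean of 0.12 (limma adjusted p = 0.0998). Nfkbia, the inhibitor of NF-kB, had a mean of -0.11 (limma adjusted p = 0.0667), the one mean of the list below 0. Because the direction of the ratios was read partly from such genes, the list's sign is no independent evidence of itself. The list's median with flip arrays multiplied by -1 was 0.014.

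Toll-like receptor signalling was thinly covered. Of 4 measured genes, Tlr4, the LPS receptor itself, was past the threshold with values of 0.11, 0.13 and 0.28 in rats 2, 4 and 6 (mean 0.17, limma adjusted p = 0.0247). Its adjusted p was 0.0636, 0.0604 and 0.0961 without rat 2, 4 or 6, and with neighbouring probes subtracted the mean was -0.018. Of the receptors for cytokines and chemoattractants, Il6r, the interleukin-6 receptor, fell to -0.42, -0.25 and -0.49, and Ackr3, an atypical receptor that scavenges chemokines, rose to 0.36, 0.30 and 0.35. Ccl5, a chemokine made by T cells and natural killer cells, was at -1.16, -1.13 and -0.92. It was more than 2-fold lower in 2 rats and nearly so in the other one, with a mean of -1.07 ± 0.13 (SD, n = 3; limma adjusted p = 0.00078). Over the 12 measured chemokines and chemoattractant receptors, 1 rose and 3 fell, and with any 1 rat of 6 h left out 1 rose and 1 fell. Over the 14 interleukin receptors and signal transducers, 2 rose and 1 fell, and with any 1 rat of 6 h left out 1 rose and 1 fell. With so few calls, neither list is read as different from the 8.30% higher and 10.7% lower of all genes.

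Interferon-stimulated genes rose in part. Of 42 listed, 12 were measured, and 4 passed the threshold above 0 and 2 below, with a median of 0.24. Among all genes 8.30% were higher and 10.7% lower. Gbp2, an interferon-induced GTPase that attacks the membranes around intracellular microbes, had the largest rise of them. It was at 1.31, 0.99 and 1.24 in rats 2, 4 and 6, a mean of 1.18 ± 0.17 (SD, n = 3) or 2.27-fold (limma adjusted p = 0.000205). Its 2 probes gave 1.15 and 1.22. Ifitm3, a membrane protein that blocks virus entry, was at 0.82, 0.65 and 0.85, or 1.71-fold. Irf1 at 0.46 on average and Gbp2 and Ifitm3 kept their calls with any 1 rat left out. Ifi47, an immunity-related GTPase, was at 0.61, 0.22 and 0.27, so rat 2 was clearly above the others. Its limma adjusted p of 0.0319 became 0.151, 0.0550 and 0.0706 without rats 2, 4 and 6. The members that fell were Ifi27l2b, of the Ifi27 family, with a mean of -0.33, and Bst2, the antiviral protein tetherin, with a mean of -0.28. Without rat 2 or rat 4 neither passed (limma adjusted p = 0.160 and 0.119 for Ifi27l2b, 0.106 and 0.0680 for Bst2), and Bst2 had 0.120 without rat 6. Bst2 was also at -0.0055 on fluor arrays alone. Mx2, an antiviral GTPase, had a mean of 0.72 (limma adjusted p = 0.0586), and Rsad2, the antiviral enzyme viperin, had 0.45 (limma adjusted p = 0.0801). Neither passed the threshold. Oas1a, the sensor of double-stranded RNA, was at 0.042 (limma adjusted p = 0.444).

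Antigen presentation by MHC class I was measured through 9 genes, 2 of which rose and 0 fell, with a median of 0.10. Without rats 2, 4 and 6 the rises were 1, 0 and 0. With so few calls, the list is not read as different from the 8.30% higher and 10.7% lower of all genes. Psmb9, the interferon-induced subunit of the immunoproteasome, was at 0.47, 0.39 and 0.24 (limma adjusted p = 0.0395). B2m, the light chain of class I molecules, was at 0.26, 0.33 and 0.49 (limma adjusted p = 0.0143), but its probes disagreed, with 0.67 on one and 0.048 on the other. Neither gene held with rat 4 or rat 6 left out, where the adjusted p was 0.142 and 0.0716 for Psmb9 and 0.0568 and 0.0731 for B2m. Psmb9 had 0.197 without rat 2. The heavy chain gene RT1-A1 had a mean of 0.36 (limma adjusted p = 0.0777).

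The promoters of the interferon and class I genes that rose are shown because of short motifs that such genes are known to use. The RefSeq promoter table (build GRCr8, 250 bases before to 50 after each annotated start) held all 6 of them. Capitals mark the motif: TTCNNNGAA, the palindrome bound by STAT dimers, or GAAA, any 2 bases and GAAA again on either strand, the repeat bound by interferon regulatory factors. Each line runs 5′ to 3′ on the strand of the gene.
Gbp2: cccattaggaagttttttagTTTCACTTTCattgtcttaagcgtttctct
Ifitm3: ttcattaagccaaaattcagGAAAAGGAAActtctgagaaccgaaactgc
B2m: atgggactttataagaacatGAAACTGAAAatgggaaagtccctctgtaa
Irf1: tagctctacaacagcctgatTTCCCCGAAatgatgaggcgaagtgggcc
Ifi47: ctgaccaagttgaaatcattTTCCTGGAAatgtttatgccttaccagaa
The Gbp2 window is chr2:234005676-234005725 on the plus strand, with its motif (reverse complement) 31 to 22 bases before the start. The Ifitm3 window is chr1:205541773-205541822 on the minus strand, with the motif 44 to 35 bases before the start. The B2m window is chr3:129549160-129549209 on the plus strand, with the motif 150 to 141 bases before. For Irf1 the window is chr10:38417773-38417821, plus strand, with the motif 142 to 134 bases before, and for Ifi47 it is chr10:33798628-33798676, plus strand, with the motif 96 to 88 bases before. Ifitm3 also held TTCNNNGAA, 33 to 25 bases before its start. So 3 of the 6 genes held each motif, and Psmb9 held neither. Over all 27457 promoters of the table the share was 8.68% for TTCNNNGAA and 3.77% for the GAAA repeat, and over the 3254 promoters of genes tested here 6.88% and 3.17%. Members of the same lists that did not rise were not counted apart, so the shares cannot be tied to the rise at 6 h. A match is a description of the letters and shows no binding.

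Several genes that glucocorticoid hormone is known to induce were higher, and so was its receptor. Nr3c1, the glucocorticoid receptor, was at 1.07, 1.01 and 0.88 in rats 2, 4 and 6, a mean of 0.99 ± 0.093 (SD, n = 3) or 1.98-fold (limma adjusted p = 9.2e-05). Of 23 listed glucocorticoid-induced genes, 13 were measured, and 8 passed the threshold above 0 and 0 below, with a median of 0.25. With rat 2, 4 or 6 left out the count was 4, 7 and 4. Over all genes 8.30% were higher and 10.7% lower. Il1r2, Zfp36 and Nfkbia also belong to the LPS list, so the lists are not separate evidence. Anxa1, a phospholipid-binding protein that restrains leukocyte migration, was at 2.64 in rat 2, 1.50 in rat 4 and 1.68 in rat 6. Rat 2 lay well above the others, and the mean was 1.94 ± 0.62 (SD, n = 3) or 3.84-fold (limma adjusted p = 0.00372). Dusp1, a phosphatase that switches off MAP kinases, was at 0.73, 0.31 and 0.37, again with rat 2 highest. Its limma adjusted p of 0.0463 became 0.222, 0.0905 and 0.0993 without rats 2, 4 and 6, and 0.0901 under quantile normalization. Cebpb, a transcription factor of myeloid and acute phase genes, was at 0.40, 0.14 and 0.51, with an adjusted p of 0.0120 that became 0.0832 without rat 2 and 0.0568 without rat 6. Per1, a clock gene that the receptor activates directly, was at -0.030 (limma adjusted p = 0.577).

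Several rises belonged to granule and cytotoxic cell proteins. Gzmc, a granzyme of cytotoxic lymphocytes, was at 1.64, 2.14 and 1.84, a mean of 1.87 ± 0.25 (SD, n = 3) or 3.66-fold (limma adjusted p = 8.1e-05). Srgn, the proteoglycan serglycin that packs granule proteins, was at 1.46, 1.20 and 1.14, or 2.41-fold. Prf1, the pore-forming perforin, had a smaller rise with values of 0.21, 0.30 and 0.29. Of the 4 measured markers of natural killer and cytotoxic cells, Gzmc and Prf1 rose, while Gzmk was at -0.075 and the receptor chain Il2rb at -0.033, neither past the threshold. Granzyme and mast cell protease genes are families of like sequence, and the array names cannot show which copy a probe bound. Over 29 serine proteases, granzymes and their inhibitors, 10 rose and 2 fell (4, 7 and 5 rose without rats 2, 4 and 6). The shares over all genes were 8.30% higher and 10.7% lower. Spink1l, named as like the Kazal-type protease inhibitor Spink1, had the lowest mean of any gene, at -1.86, -2.40 and -1.86 in rats 2, 4 and 6. Its mean was -2.04 ± 0.31 (SD, n = 3), or 4.11-fold lower (limma adjusted p = 0.000205). Of 6 measured neutrophil granule markers, 3 rose: S100a9, Lcn2 and the defensin Defa5, at 0.14, 0.16 and 0.20. Defa5 was at 0.0018 on fluor arrays alone, and its adjusted p was 0.0655 without rat 6. Lyz2, lysozyme, was at -0.010 and Chi3l1, a chitinase-like protein, at -0.37, neither past the threshold (limma adjusted p = 0.897 and 0.0579).

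Most measured MHC class II genes fell. Of 5 measured genes of class II presentation, 4 passed the threshold below 0 and 0 above, with a median of -0.70 that was -0.78 to -0.59 under the other settings and 0.024 with flip arrays multiplied by -1. Without rat 2, 4 or 6, 3 fell in each case. Among all genes 10.7% were lower and 8.30% higher. RT1-Ba, an alpha chain of a classical class II molecule, was at -0.82, -0.89 and -0.84 in the 3 rats, a mean of -0.85 ± 0.036 (SD, n = 3) or 1.80-fold lower (limma adjusted p = 0.00131). RT1-Db1, a class II beta chain, was at -0.89, -0.62 and -0.60, and RT1-DMb, a chain of the DM molecule that loads peptides, at -0.97, -0.55 and -0.69. All 3 genes were below 0 on all 6 arrays, as were 12.6% of all genes. The RT1-Db1 probe is numbered next to that of Csnk2b, the gene with the largest mean. RT1-DMa, the partner chain of RT1-DMb, moved far less, at -0.12, -0.15 and -0.23, and its limma adjusted p of 0.0271 became 0.0848, 0.0932 and 0.121 without rats 2, 4 and 6. The exception was Ctss, the cathepsin that cleaves the invariant chain, with 0.27, 1.32 and 0.10 (limma adjusted p = 0.106). RT1 genes are a family of close copies, so single symbols within it are uncertain.

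T cell markers leaned the same way, while B cell markers divided. Of 7 measured T cell markers, 4 fell and 0 rose, with a median of -0.11, and the count was 1, 2 and 2 without rats 2, 4 and 6. For both marker lists the shares over all genes are 8.30% higher and 10.7% lower. Cd3d, a chain of the T cell receptor complex, was at -0.52, -0.66 and -0.88, a mean of -0.69 ± 0.18 (SD, n = 3; limma adjusted p = 0.00106). Lef1, a transcription factor of naive T cells, was at -0.35, -0.28 and -0.21, with an adjusted p of 0.0739 without rat 2. Ccr7, the receptor that guides lymphocytes into lymph nodes, was at -0.14, -0.27 and -0.20, and Cd7 at -0.15, -0.12 and -0.073. Ccr7 did not pass without rat 2, 4 or 6 (limma adjusted p = 0.124, 0.189 and 0.122), nor did Cd7 (0.202, 0.140 and 0.0784). Thy1 and Tcf7 did not pass, at 0.011 and -0.083. Of 4 B cell markers, the tetraspanin Cd37 fell to -0.67, -0.74 and -0.71 (mean -0.71, limma adjusted p = 8.4e-05). Cd24, which immature neutrophils and red cell precursors also carry, was above 0 at 0.33, 0.13 and 0.77. Its rats differed widely, and its limma adjusted p of 0.0391 became 0.128 without rat 2 and 0.0706 without rat 6. Ptprc, the leukocyte common antigen CD45, fell to -0.41, -0.47 and -0.26 (limma adjusted p = 0.00171).

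Monocyte and macrophage markers were few. Of 4 measured, the complement genes C1qb and C1qc fell and 0 rose. C1qb was at -0.23, -0.17 and -0.21, and at -0.081 on flip arrays alone. C1qc was at -0.68, -0.33 and -0.10, a wide spread in which rat 2 was lowest (limma adjusted p = 0.0435; 0.162 without rat 2 and 0.126 without rat 4). Of 12 erythroid genes, 3 haemoglobin chains fell and Gata1, the red cell transcription factor, rose. The list did not lean down as a whole: 8 of its means were above 0 and 4 below, with a median of 0.15. Hbb-b1, a beta globin chain, was at -0.25, -0.37 and -0.37 (limma adjusted p = 0.0021). Hbb had a mean of -0.16 and Hba-a1 of -0.12, and both missed the threshold without rat 2 (limma adjusted p = 0.233 and 0.107) and without rat 4 (0.159 and 0.139). Hba-a1 also had 0.0907 without rat 6, and was at 0.010 on flip arrays alone. Globin genes are near-identical copies, so their probes cannot be assigned with certainty. Gata1 was at 0.50, 0.39 and 0.15, with an adjusted p of 0.0696 without rat 2 and 0.0626 without rat 4. Of 2 platelet genes, 0 passed. Among markers of organs that blood should lack, 1 of 14 liver, 1 of 9 brain and 1 of 11 muscle genes rose, shares near the 8.30% of all genes. In the other direction 1 muscle gene fell and 0 liver and 0 brain genes, where 10.7% of all genes were lower. On flip arrays alone 8 of the 14 liver genes rose and 0 fell, and on fluor arrays alone 1 rose and 4 fell. As ratios carry no level, it is not known which of all these markers were detected, and the part of cell composition in any change was not tested.

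**Figure D3:**
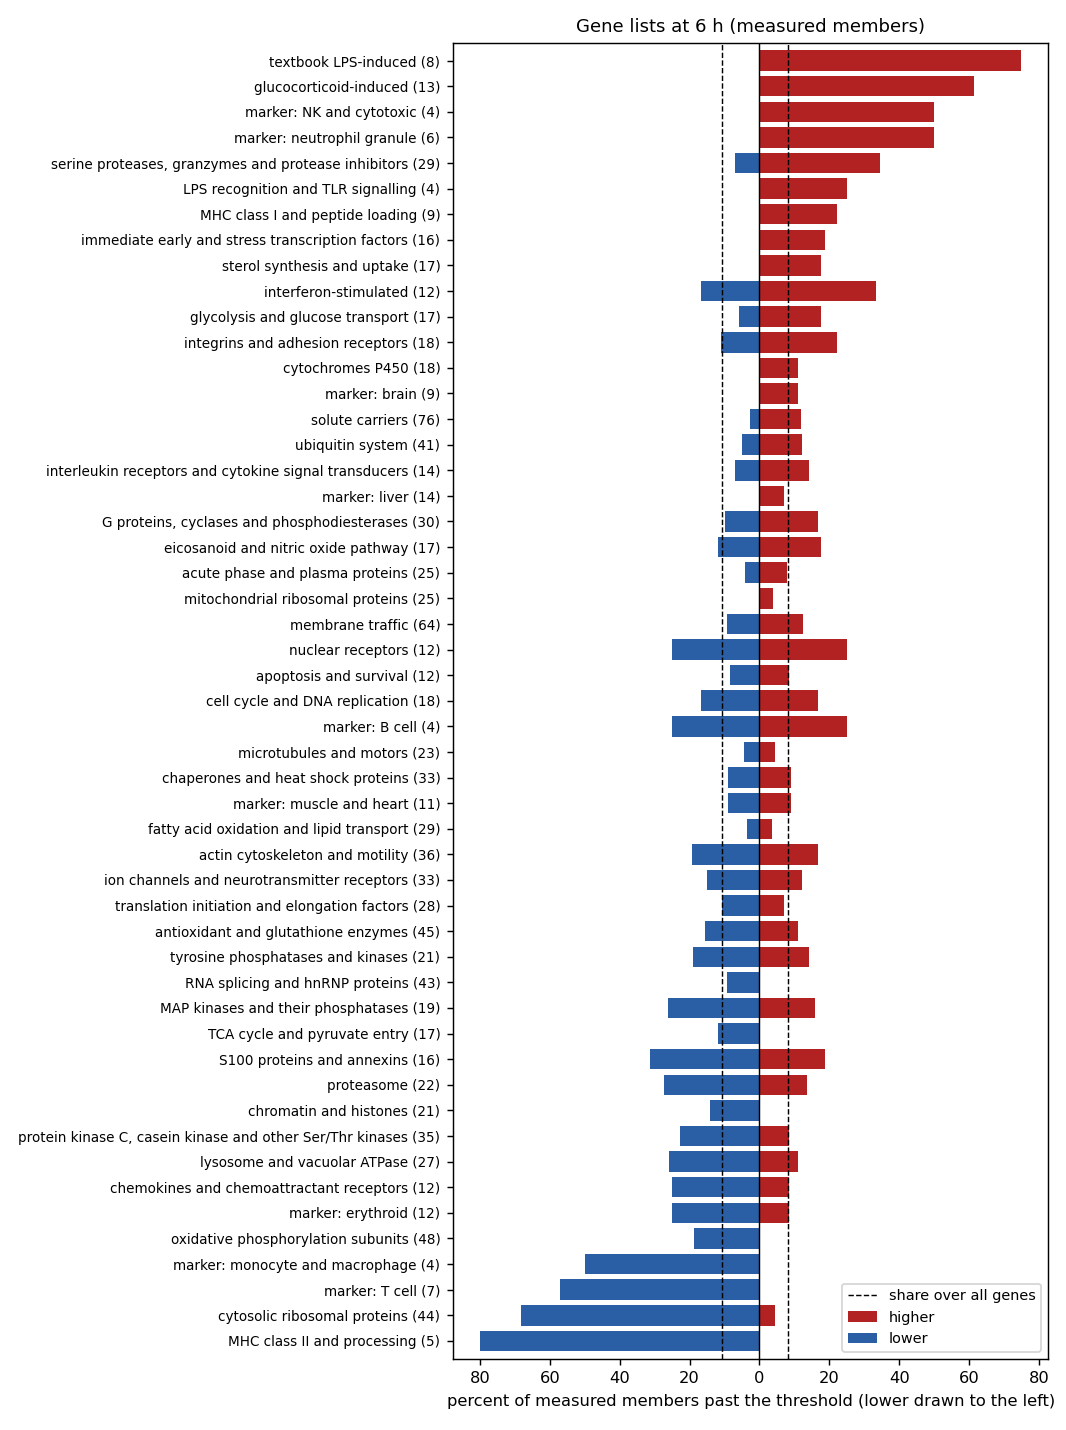
For each reported gene list with at least 4 measured members (number in brackets), the percentage of measured members past the threshold above 0 (red, to the right) and below 0 (blue, drawn to the left). Dashed lines mark the 8.30% and 10.7% over all genes; the LPS-induced list lies far to the right with 6 of 8 genes, and the MHC class II and cytosolic ribosomal lists far to the left with 4 of 5 and 30 of 44.

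Most measured genes of the cytosolic ribosome fell. Of 44, 30 passed the threshold below 0 and 2 above, and the median of -0.37 lay between -0.44 and -0.32 under the other settings, but at 0.063, with 13 higher and 1 lower, when flip arrays were multiplied by -1. With rat 2, 4 or 6 left out 25 fell in each case. The shares past the threshold over all genes were 10.7% lower and 8.30% higher. All 3 rats were below 0 for 33 of the 44 genes and above 0 for 6. The share of all genes with 1 sign in all 3 rats was not counted. Rps6, the small subunit protein that S6 kinase phosphorylates, fell furthest, at -1.37, -1.49 and -1.16 in rats 2, 4 and 6. Its mean was -1.34 ± 0.17 (SD, n = 3), or 2.53-fold lower (limma adjusted p = 0.000201). Rpl6 was at -0.94, -0.99 and -0.86, Rps3 at -0.90, -1.05 and -0.82, and Rpl7 at -0.97, -0.88 and -0.83. These genes lay below 0 on all 6 arrays, as did 12.6% of all genes. For Rps6, Rpl6 and Rps3 this is no further support. They are among the 15 largest falls, which were picked from genes with 1 sign on all 6 arrays. The members that rose were Rpl41 and Rps29. Rpl41 was at 0.32, 0.52 and 0.17 but at 0.039 on flip arrays alone, with an adjusted p of 0.0864 without rat 2 and 0.0683 without rat 4. Rps29 was at 0.093, 0.21 and 0.28, with an adjusted p of 0.0794 without rat 4 and 0.0806 without rat 6. Ribosomal protein genes have many near-identical pseudogenes, which a spotted probe may not tell apart, and 1 of the 15 largest falls, Rpl17-ps16 at a mean of -0.91, carries a pseudogene's symbol.

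**Figure D4:**
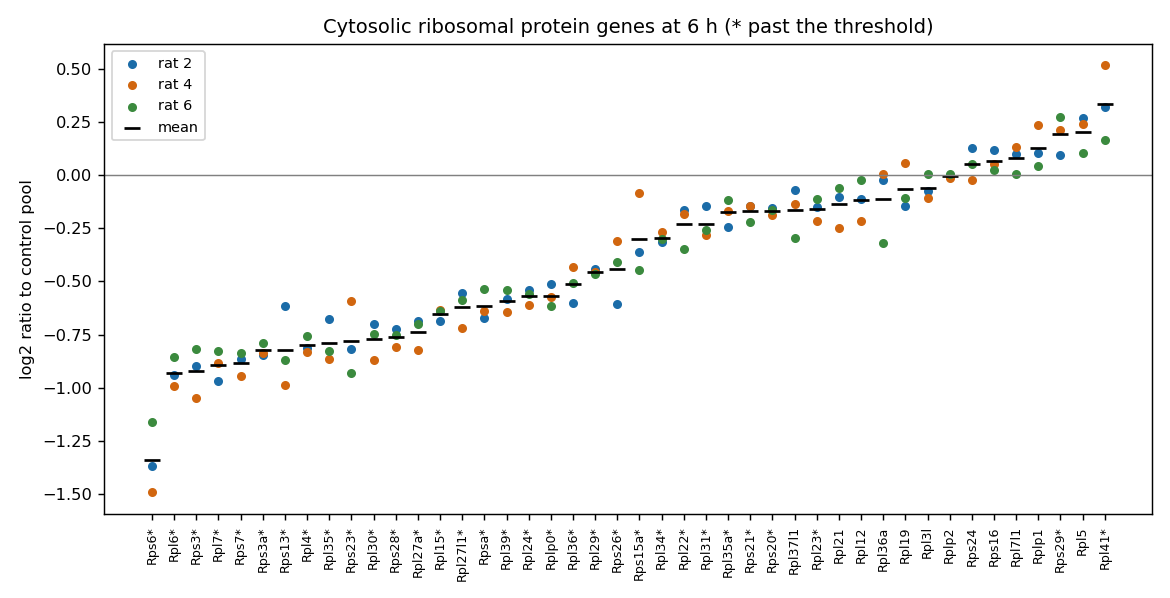
Log2 ratio to the control pool (y axis) of each measured cytosolic ribosomal protein gene at 6 h, ordered by mean; coloured points are rats 2, 4 and 6, black bars are means and an asterisk marks genes past the threshold. The genes run from Rps6 at -1.34 to Rpl41 at 0.33, and most lie below 0 in all 3 rats.

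Other parts of the translation machinery divided. Eef1a1, the elongation factor that brings aminoacyl-tRNA to the ribosome, was at -1.09, -0.93 and -0.94, a mean of -0.99 ± 0.089 (SD, n = 3) or 1.98-fold lower (limma adjusted p = 8.4e-05). Eef2, which moves the ribosome along the mRNA, was at -0.73, -1.06 and -0.93. Rack1, a scaffold on the small subunit, was at -0.80, -1.01 and -0.89. Eef2k, the kinase that inhibits eEF2, rose to 0.35, 0.45 and 0.31 (limma adjusted p = 0.00132). Yet of 28 initiation and elongation factors 2 rose and 3 fell, with a median of 0.0046. These shares are near the 8.30% higher and 10.7% lower of all genes. Of 25 mitochondrial ribosomal proteins 1 rose (0 without any 1 rat of 6 h) and 0 fell, with a median of 0.0094. The fall over the cytosolic ribosomal list was therefore not seen in either list's median, though the difference between lists was not tested.

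Vertebrate ribosomal protein and elongation factor mRNAs are known to start with a run of pyrimidines, through which the mTOR pathway regulates their translation. The bases around the annotated start are shown for a few genes that fell, from 15 bases before the start to 14 after it, with the longest run of C and T in capitals.
Eef1a1: tcgccttggacgTTCTTTTTCgcaacgggt
Rps7: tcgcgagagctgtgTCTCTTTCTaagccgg
Rps3a: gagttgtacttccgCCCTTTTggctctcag
Rps23: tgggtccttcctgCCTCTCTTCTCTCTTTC
Rpl35: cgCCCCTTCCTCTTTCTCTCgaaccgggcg
Rpl27a: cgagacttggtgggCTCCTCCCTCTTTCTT
Rpl34: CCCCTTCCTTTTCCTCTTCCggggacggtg
They lie on GRCr8 at chr8:88225055-88225084 (Eef1a1, minus strand), chr6:50999431-50999460 (Rps7, minus), chr2:173827028-173827057 (Rps3a, minus), chr2:23814502-23814531 (Rps23, plus), chr3:43165907-43165936 (Rpl35, minus), chr1:172974558-172974587 (Rpl27a, plus) and chr2:221962269-221962298 (Rpl34, minus). A run of at least 7 pyrimidines on the gene's strand lay in this window in 27 of the 37 ribosomal genes with a RefSeq promoter (73.0%) and in 21 of the 25 of these that fell (84.0%). It was absent from the windows of Rpl24, Rpl36, Rpl6 and Rps6, all of which fell. The share was 17.8% over all 27457 promoters and 17.4% over those of genes tested. These runs are a feature of the gene family, and the arrays measured mRNA amount, not translation.

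In energy metabolism, 1 aldolase and the glucose transporters of leukocytes rose and some mitochondrial subunits fell. Aldoc, the aldolase C of glycolysis, was at 1.67, 1.61 and 1.62 in rats 2, 4 and 6. The rats were nearly identical, with a mean of 1.63 ± 0.031 (SD, n = 3) or 3.10-fold and the smallest adjusted p of any gene at 6 h (limma, 3.1e-06). Slc2a1, the glucose transporter GLUT1, was at 0.48, 0.39 and 0.38 (limma adjusted p = 0.000298). Slc2a3, the transporter GLUT3, was at 0.68, 0.40 and 0.30, and its limma adjusted p of 0.0402 became 0.205, 0.117 and 0.0738 without rats 2, 4 and 6. Of 17 genes of glycolysis and glucose transport 3 rose and 1 fell (2 and 0 without any 1 rat of 6 h), and most of the pathway enzymes, such as Aldoa at 0.018 and Ldha at 0.0042, did not pass. Of 48 subunits of oxidative phosphorylation 0 rose and 9 fell, with a median of -0.051, and 4, 5 and 4 fell without rats 2, 4 and 6. These 9 are 18.8% of the list. Over all genes 10.7% were lower, 8.30% higher and 19.0% past the threshold in either direction. Atp5f1b, the catalytic beta subunit of ATP synthase, was at -0.60, -0.74 and -0.79, a mean of -0.71 ± 0.10 (SD, n = 3; limma adjusted p = 0.000201). Atp5pf, of the stalk of the same enzyme, was at -0.58, -0.71 and -0.48. Ndufb4, of complex I, was at -0.72, -0.21 and -0.34, with an adjusted p of 0.0528 without rat 6. Of 17 genes of the citric acid cycle and pyruvate entry, 2 fell and 0 rose (1 fell without any 1 rat of 6 h). This share of 11.8% is near the 10.7% lower over all genes. Sterol synthesis had 3 of 17 genes higher and 0 lower (1 higher without rat 2), led by Sqle, squalene epoxidase, at 0.23, 0.38 and 0.22. Fatty acid oxidation and lipid transport had 1 of 29 higher and 1 lower, and neither passed without rat 2 or rat 6.

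Among redox enzymes, Prdx5, a peroxiredoxin that reduces peroxides in mitochondria and the cytosol, was at 3.10, 2.70 and 2.55, a mean of 2.78 ± 0.28 (SD, n = 3) or 6.88-fold (limma adjusted p = 7.7e-05). Oplah, the 5-oxoprolinase of the glutathione cycle, was at -1.11, -1.52 and -1.08, or 2.35-fold lower. Blvra, which makes bilirubin from biliverdin, fell to -0.82, -0.93 and -0.76. Gstt1, a glutathione transferase, was at -0.74, -0.54 and -0.65, and had an adjusted p of 0.0863 on fluor arrays alone. Of the 45 genes in this list 5 rose and 7 fell, with a median of -0.0064 (3, 3 and 4 rose without rats 2, 4 and 6). These counts are not read as different from the 8.30% higher and 10.7% lower of all genes. Gch1, the first enzyme of tetrahydrobiopterin synthesis, a cofactor of nitric oxide synthases, fell to -0.91, -0.93 and -0.78 (limma adjusted p = 0.000373). Of the eicosanoid and nitric oxide pathway, 3 of 17 rose and 2 fell. Ptger4, the prostaglandin E receptor EP4, was at 0.26, 0.31 and 0.18, and Alox5, the 5-lipoxygenase, at 0.14, 0.22 and 0.33. With neighbouring probes subtracted Alox5 was at -0.026.

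The largest mean of any gene belonged to the probe named Csnk2b, for the regulatory subunit of casein kinase 2. It was at 5.02, 5.38 and 4.88 in rats 2, 4 and 6, a mean of 5.10 ± 0.26 (SD, n = 3) or 34.2-fold (limma adjusted p = 7.7e-05). No second probe of this gene was on the array, and the name rests on the platform annotation alone, so whether the probe measured Csnk2b was not checked. Of 35 protein kinase C, casein kinase and other serine/threonine kinase genes 3 rose and 8 fell (5, 6 and 6 fell without rats 2, 4 and 6); the pattern that drew up the list also took Camkmt, a methyltransferase. Prkcb, a protein kinase C of leukocytes, was at -0.84, -0.94 and -0.82 (limma adjusted p = 8.1e-05), and Prkcz, an atypical one, at -0.40, -0.50 and -0.49. Map2k2, the kinase MEK2, fell to -0.52, -0.46 and -0.49 (limma adjusted p = 0.000205). Of 19 MAP kinases and their phosphatases 3 rose and 5 fell, and without rats 2, 4 and 6 the rises were 1, 1 and 2 and the falls 3, 3 and 2. For both kinase lists the shares over all genes are 8.30% higher and 10.7% lower. Pde2a, a phosphodiesterase that cyclic GMP stimulates, rose to 1.23, 1.27 and 1.56, or 2.56-fold. Rnf112, a brain-enriched RING finger protein, was at 1.55, 1.66 and 1.57, or 3.02-fold (limma adjusted p = 1.7e-05). Its probe, numbered 1047, lies near that of Csnk2b, numbered 1043.

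Genes of the lysosome, proteasome and actin skeleton gave mixed lists, to be set beside the 8.30% higher and 10.7% lower of all genes. Psap, the precursor of the saposins that aid sphingolipid breakdown, was at -1.07, -1.29 and -1.34, or 2.35-fold lower (limma adjusted p = 0.000309). Atp6v0c, a membrane subunit of the vacuolar proton pump, rose to 0.71, 0.40 and 0.43. Of 27 lysosomal genes 3 rose and 7 fell (3, 6 and 4 fell without rats 2, 4 and 6). Of 22 proteasome genes 3 rose and 6 fell, and without rats 2, 4 and 6 the rises were 0, 1 and 0 and the falls 3, 3 and 4. Psma1, of the core's outer ring, was at -0.47, -0.37 and -0.30, with an adjusted p of 0.0684 under quantile normalization. Psmb4, of its inner ring, was at -0.15, -0.34 and -0.21, and at -0.058 with neighbouring probes subtracted. Tmsb10, a thymosin that binds free actin, was at -1.32, -1.03 and -1.08, or 2.21-fold lower (limma adjusted p = 9.3e-05). Actr2, of the Arp2/3 complex that nucleates actin, was at -0.80, -0.50 and -0.66, and Cfl1, the filament-severing cofilin, at -0.43, -0.35 and -0.24. Vasp, which promotes filament growth, rose to 0.53, 0.59 and 0.95, with an adjusted p of 0.0699 on flip arrays alone. Over 36 actin genes 6 rose and 7 fell (2, 3 and 2 rose without rats 2, 4 and 6).

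Among genes of growth and other functions, Btg1, an antiproliferative gene highly expressed in resting lymphocytes, was at -1.32, -1.26 and -0.79, or 2.18-fold lower (limma adjusted p = 0.000597). Pcna, the sliding clamp of DNA replication, was at -0.36, -0.37 and -0.32, but at -0.023 with neighbouring probes subtracted. Lgals9, the lectin galectin-9, rose to 0.89, 1.22 and 0.81, and Ceacam4, an adhesion molecule, to 1.34, 0.78 and 0.78. S100a10, the partner of annexin A2, fell to -0.55, -0.64 and -0.74 (limma adjusted p = 0.00101), in contrast to S100a9. Of 16 S100 proteins and annexins 3 rose and 5 fell, and without rat 2, 2 rose and 2 fell. A list with few calls was RNA splicing, with 0 of 43 higher and 4 lower (2 lower without rat 2). Microtubule genes had 1 of 23 higher and 1 lower (0 of each without rat 2). Solute carriers had 9 of 76 higher and 2 lower, and without rats 2, 4 and 6 the rises were 3, 5 and 3 and the falls 0 in each case. Their 14.5% past the threshold compares with 19.0% of all genes (8.30% higher and 10.7% lower). Plasma and acute phase proteins, made mainly in the liver, had 2 of 25 higher and 1 lower, and without rats 2, 4 and 6 the rises were 0, 1 and 0 and the falls 0 in each case.

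Finally, the 6 h rats were set against the 2 h rats to see where 6 h differed. The difference also holds any difference between the control pools, and the test treats the 6 rats as separate animals. Of 3939 genes, 20 (0.508%) differed between the times at a limma adjusted p under 0.05, 13 higher and 7 lower at 6 h, and 569 had an unadjusted p under 0.05. The count was 2, 16 and 4 without 6 h rats 2, 4 and 6, and 5, 7 and 31 without 2 h rats 1, 2 and 3. Il1b was lower at 6 h, at 2.05 against 3.90, a difference of -1.86 ± 0.15 (SE; limma adjusted p = 0.00735, or 0.0554 without 6 h rat 2). Timp2, an inhibitor of matrix metalloproteinases, was at 0.39, 0.27 and 0.32 at 6 h against 1.18 on average at 2 h, a difference of -0.86 (limma adjusted p = 0.00201). Among the genes described here it alone kept this call with any 1 of the 6 rats left out (adjusted p up to 0.0163); its own 6 h mean had an adjusted p of 0.109 with arrays scaled to equal spread. Snx12, a sorting nexin of endosomes, fell from 1.82 to 0.73 (difference -1.10, limma adjusted p = 0.0110). In the other direction, Gbp2 rose from 0.21 at 2 h to 1.18, a difference of 0.97 (limma adjusted p = 0.0265). Prdx5 rose from 1.48 to 2.78 (difference 1.30, limma adjusted p = 0.0408), Aldoc from 1.25 to 1.63 (difference 0.38, limma adjusted p = 0.0408), and Spink1l went from -0.39 to -2.04 (difference -1.65, limma adjusted p = 0.0265). Most of these differences did not hold when each of the 6 rats was left out in turn. Prdx5 missed the threshold in all 6 cases (adjusted p 0.0561 to 0.115), Aldoc in 5 (0.0779 to 0.154) and Spink1l in 4 (0.0779 to 0.0993). Gbp2 missed it in 3 cases (without 2 h rat 1 and 6 h rats 2 and 6, 0.0779 to 0.0993) and Snx12 in 3 (without 2 h rats 1 and 2 and 6 h rat 2, 0.0507 to 0.0847). For the ribosomal and class II genes the difference did not pass: Rps6 had -0.21 (limma adjusted p = 0.513) and RT1-Ba -0.24 (limma adjusted p = 0.469). Csnk2b had 0.83 (limma adjusted p = 0.304).

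**Figure D5:**
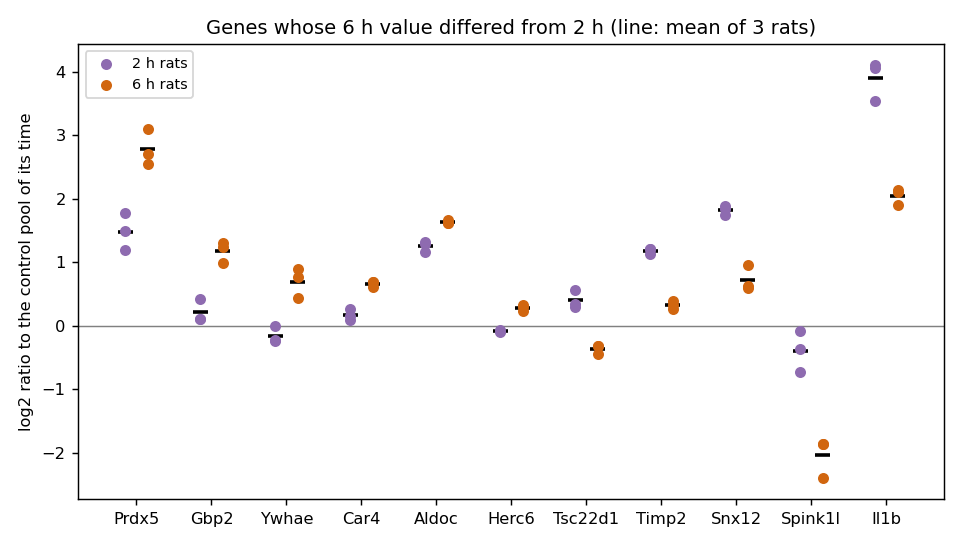
Log2 ratio against the pool of that time (y axis) in each 2 h rat (purple) and each 6 h rat (orange). The genes are the named ones whose values differed between the times, and black bars are means of 3 rats. Ywhae, Car4, Tsc22d1 and Herc6 among them were chosen after their values were seen. Of the other 7 genes, Prdx5, Gbp2 and Aldoc are higher at 6 h and Timp2, Snx12, Spink1l and Il1b lower. The groups of rats do not overlap for any of these 7. That is no further support, because they are shown for passing the test of this difference.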

How the data were processed

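Total RNA was measured on 2-colour arrays. The authors deposited log2 ratios of the 2 channels, 1 value for each probe of an array. The log base was checked on the values between -2 and 2: their antilog lay within 0.05 of a step of a whole multiple of 0.0001 in 100% of cases with base 2, against 10.2% with base e and 9.44% with base 10. The sources used here do not give the dyes, scanner, background correction or normalization. Some probes (272 to 288 on each 6 h array) shared 1 repeated value. Probes were named from the 2007 platform annotation, with symbols updated through identifiers in a GRCr8 table. Exactly 1 symbol was given for 4190 of 7200 probes (4184 with a matched identifier), several for 46 and none for 2964. Probes of a symbol were averaged, which gave 3939 genes, 236 with more than 1 probe. Fluor and flip arrays were averaged per rat. The 6 rats of both times were fitted together with limma 3.58.1 in R 4.3.3 (lmFit and eBayes, group means, 4 residual degrees of freedom), because 3 rats alone leave few. Contrasts were 6 h against 0 and 6 h minus 2 h, with p-values adjusted by Benjamini-Hochberg over all genes. An exact sign-flip test over 3 rats cannot go below a 2-sided p of 0.25, so none was used. On simulated data (3939 genes, 200 changed, LPS 6 h against 0) 64%, 94%, 100% and 100% of changes of 0.25, 0.5, 1 and 2 (log2) were recovered, and 0.187% of unchanged genes passed. The simulated noise was independent for each rat, with no deviation of a shared pool and no effect of orientation. It therefore gives no rate of false calls for the real arrays.

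Named genes are the 15 largest rises and falls past the threshold with 1 sign on all 6 arrays, up to 4 members a list and direction (the 2 largest where none passed) and the measured LPS-induced genes. Of the list members those that held with any 1 rat left out were preferred. List members named as not past the threshold were chosen after their values were seen, as were Ptk2, Ramac, Ywhae, Car4, Tsc22d1 and Herc6. The members and lists were chosen with earlier results of these data known. Fold is 2 to the power of the mean. Alternatives were other scalings, 1 orientation alone, turned flip arrays, neighbouring probes subtracted (4 on each side), other models and each rat left out. 1 gene list is not reported here. Promoter sequences are from RefSeq.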

Additional observations from a re-analysis of the deposited data

Results flagged for a closer look

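Of the genes described, 11 differed between 6 h and 2 h in limma's test of the difference itself, at an adjusted p under 0.05. The differences, 6 h minus 2 h on the log2 scale, were 1.30 for Prdx5, 0.38 for Aldoc, 0.97 for Gbp2, -1.86 for Il1b, -1.65 for Spink1l, -0.86 for Timp2 and -1.10 for Snx12. A further 4 genes were chosen after their values were seen. Ywhae, the 14-3-3 epsilon adaptor protein, was at 0.69 at 6 h and -0.16 at 2 h, a difference of 0.85 (limma adjusted p = 0.0491). Car4, a membrane-bound carbonic anhydrase, was at 0.66 and 0.17, a difference of 0.49 (limma adjusted p = 0.0244). Herc6, an interferon-induced ubiquitin ligase of the Herc family, was at 0.29 and -0.084, a difference of 0.37 (limma adjusted p = 0.0244). Tsc22d1, a leucine zipper protein that TGF-beta induces, was at -0.44, -0.32 and -0.32 in the 6 h rats and at 0.29, 0.57 and 0.35 in the 2 h rats, a difference of -0.76 (limma adjusted p = 0.0225). Its groups lay on opposite sides of 0, which is no further support because the gene was chosen after its values were seen. Without 6 h rat 2 none of these 4 passed (adjusted p 0.128 for Ywhae and 0.0993 for the others). With each of the 6 rats left out in turn, Ywhae missed the threshold in 5 cases, Car4 and Herc6 in 4 each and Tsc22d1 in 2. Whether the control pools differ between the times was not tested.

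Probes without a single gene symbol carried signal too. Of 3010 such probes, 367 passed the threshold at 6 h in the fit of all 7200 probes, 149 higher and 218 lower, where 1028 probes (14.3%) passed in all. Of the 367, 4 rose and 5 fell at least 2-fold. Which genes they stand for is not analysed here.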

How the results depend on the processing

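No paired analysis was possible because the times share only 1 rat number, fewer than 2, and the labels do not say that it is 1 animal. Against 749 genes that differed at 6 h (327 higher, 422 lower), 1202 of all 3939 genes differed on fluor arrays alone (585 higher). Flip arrays alone gave 534 higher, and a model of single arrays, with a term for the dye and rats as random blocks, gave 542. Leaving out 1 rat gave 306 to 927 genes, 101 to 437 higher and 205 to 490 lower. Of probes, 1859 passed on fluor arrays, 1711 on flip arrays and 1833 with the dye term, against 1028, and 311 to 1301 with 1 rat left out. The 20 genes that differed between 6 h and 2 h became 4 on fluor arrays, 5 on flip arrays, 8 under quantile normalization, 10 with neighbouring probes subtracted, 131 with the dye term and 2 to 31 with 1 rat left out. The causes were not tested.

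Named genes were chosen partly for 1 sign on all 6 arrays or for holding with any 1 rat left out, so how many of them kept their calls is no measure of stability. Of the 749 calls, 301, 392 and 371 were kept without 6 h rats 2, 4 and 6. Under settings other than turned flip arrays, the named genes whose mean turned were Tlr4 at -0.018 and Alox5 at -0.026 with neighbouring probes subtracted and Hba-a1 at 0.01 on flip arrays; S100a8, not past the threshold, was at 0.082 on fluor arrays.

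Flip arrays multiplied by -1 cancel what both arrays of a rat show alike. Under this setting 1461 genes differed (814 higher, 647 lower), 2406 probes, and 0 genes between the times in limma's test (484 at an unadjusted p under 0.05). Of 104 named genes past the threshold, 15 passed with the same sign and 16 with the other. Means that turned to above 0 were Spink1l 0.24, Rps6 0.16, Oplah 0.033, Tmsb10 0.15, Btg1 0.19, Eva1b 0.056, Ccl5 0.25, Eef1a1 0.20, Rpl6 0.21, Rps3 0.16, Rpl17-ps16 0.074, Eef2 0.069, Lrch1 0.16, Rack1 0.21, Nfkbia 0.063, Ifi27l2b 0.017, Bst2 0.27, RT1-Ba 0.035, RT1-DMb 0.024, RT1-DMa 0.041, Map2k2 0.069, Blvra 0.19, Gstt1 0.24, Atp5f1b 0.25, Atp5pf 0.066, Idh3g 0.015, Rpl7 0.20, Psmb4 0.074, Actr2 0.26, Cfl1 0.054, Prkcb 0.16, Prkcz 0.041, Ptprc 0.14, Gch1 0.057, Cd7 0.00084, Cd37 0.0072, Laptm5 0.16, Sirpa 0.029 and S100a8 0.13. Means that turned to below 0 were Csnk2b -0.033, Rnf112 -0.059, Pde2a -0.13, Gbp2 -0.0059, Il1r2 -0.094, Irf1 -0.03, Tnf -0.18, Sod2 -0.094, Dusp1 -0.10, Tlr4 -0.075, Prf1 -0.067, Slc2a1 -0.072, Eef2k -0.061, Alox5 -0.12, Ptger4 -0.049, Cd24 -0.0038, Defa5 -0.17, Nfe2l2 -0.067 and Ywhae -0.086. The differences 6 h minus 2 h that turned were Gbp2 -0.15, Spink1l 0.17, Ywhae -0.06, Car4 -0.015 and Herc6 -0.0025. With no intensities or replicates of the pool, neither signal over background nor the pool's spread is known.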

Other observations

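Some genes outside the lists, chosen after their values were seen, changed in genes of known leukocyte function. Nampt, the rate-limiting enzyme of NAD salvage that neutrophils also secrete, was at 0.92, 0.56 and 0.97 in rats 2, 4 and 6, a mean of 0.82 ± 0.23 (SD, n = 3; limma adjusted p = 0.00108). Fcgr2a, a receptor for the constant part of IgG, was at 0.93, 0.52 and 0.55 (limma adjusted p = 0.00288). Nfe2l2, the transcription factor NRF2 of the oxidative stress response, was at 0.63, 0.40 and 0.47 (limma adjusted p = 0.00747, or 0.0561 without rat 2). Laptm5, a lysosomal membrane protein of blood cells, fell to -0.88, -0.84 and -0.64 (limma adjusted p = 0.000195). Sirpa, the inhibitory receptor on myeloid cells that binds CD47, was at -0.49, -0.54 and -0.45 (limma adjusted p = 0.000298), and Lgals1, the lectin galectin-1, at -0.37, -0.42 and -0.53 (limma adjusted p = 0.00176). All 6 genes had the same sign on all 6 arrays, as did 22.8% of all genes. Since they were chosen with their values seen, that is no further support.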
